A study of Mus musculus with 8 samples.

Results

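RGS proteins, the regulators of G-protein signalling, were examined in B cells sorted from mouse spleens. The set named Rgs1, Rgs2, Rgs3, Rgs10, Rgs13, Rgs14, Rgs16, Rgs18 and Rgs19, and 8 of these 9 genes were measured, among 20 RGS genes and 19937 genes in all. Rgs10 was not analysed here. A gene stood for the probe set annotated to its symbol alone, chosen by the highest mean over all 8 arrays, so the order of levels below is a description without a test. The group labels played no part in that choice, and the difference between the groups was tested in a fit over all 21640 probe sets with 1 gene symbol.

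The study compared 4 arrays named Control (genotype Wild-Type, littermates) with 4 named Sca1-HGAL. All came from adult mice of the CBAxC57BL/6J background, and the RNA was from spleen cells positive for CD22 and B220. The second group carried human HGAL (GCET2), a signalling adaptor of germinal centre B cells, under the Sca1 (Ly-6E.1) promoter. One label calls the mice knock-in and the design text calls them transgenic. Nothing says that each array is a mouse of its own, so the p-values reflect only how far these arrays spread, which may be technical. In a sorted population, fewer cells of a subset and less RNA per cell cannot be told apart.

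RGS proteins bind the active, GTP-loaded alpha subunit of a heterotrimeric G protein and speed the hydrolysis of its GTP, which ends the signal from the receptor. B cells find their place in the spleen through receptors of this class for chemokines, sphingosine-1-phosphate and oxysterols, and RGS proteins set how long and how strongly such a receptor signals. Rgs1, Rgs2, Rgs3, Rgs13, Rgs16 and Rgs18 belong to the subfamily of mostly short proteins built around the RGS domain. Rgs14 belongs, with Rgs10, to another subfamily and also carries a GoLoco motif, and Rgs19 to one that binds Gi and Gz subunits.

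Levels are log2 RMA intensities (RMA is a method that corrects, normalises and summarises probe signals), with the SD over 4 arrays. The array medians ran from 7.22 to 7.30. The arrays carry no detection calls, and the number of arrays limits the precision. The sorting genes were high in both groups, Cd22 at 12.66 ± 0.039 and 12.70 ± 0.13 (SD, n = 4) and Ptprc, the gene of B220, at 12.77 ± 0.091 and 12.77 ± 0.068 in Control and Sca1-HGAL arrays. Control replicates 2 and 4 alone had high Xist, at 12.17 and 12.18, against 5.28 to 5.65 on the other 6 arrays. The Y-linked Eif2s3y was low on these 2 arrays, at 4.22 and 3.96, against 10.21 to 10.61 on the other 6. Sex-linked expression was thus uneven between the groups, and differences are also given without these 2 arrays.

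Rgs19 and Rgs2 were the brightest RGS probe sets, and Rgs13 the dimmest of the 8. Intensities of different probe sets depend on their probes, so this is an order of probe sets, not of transcript numbers. Rgs19, also called GAIP, was at 10.63 ± 0.044 in Control and 10.56 ± 0.064 in Sca1-HGAL arrays, above 94.0% of all probe sets tested in mean level. Rgs2, which acts mainly on Gq subunits, was at 10.62 ± 0.57 and 10.35 ± 0.45. The means of Rgs19 and Rgs2 over 8 arrays differed by 0.11, with an SD of 0.50 for the difference, and Rgs19 was the higher on 4 of 8 arrays.

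Rgs14 followed at 9.07 ± 0.13 and 8.99 ± 0.10 (Control, then Sca1-HGAL), below Rgs2 on 8 of 8 arrays. Rgs1, which restrains B-cell migration toward chemokines, was at 8.65 ± 0.76 and 8.57 ± 0.66. Rgs18, best known from megakaryocytes and platelets, was at 8.99 ± 0.32 and 7.75 ± 0.84. Rgs3, which has long forms with added domains, was at 8.28 ± 0.045 and 8.34 ± 0.15. Each of these lay above the next on only 5 or 6 of 8 arrays, from Rgs14 over Rgs1 on 6 to Rgs18 over Rgs3 on 5, so their order did not exceed the spread between arrays.

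Rgs16 was at 7.18 ± 0.081 and 7.26 ± 0.092, below Rgs3 on 8 of 8 arrays, with a mean gap of 1.09 and an SD of 0.15. Rgs13, known from germinal centre B cells, was at 7.21 ± 0.51 and 6.05 ± 0.86 and was not separated from Rgs16, which was the higher on 5 of 8 arrays. Rgs16 and Rgs13 lay below the middle of all probe sets tested, at the 49.2th and 36.1th percentile of mean level. Rgs3 alone had a second probe set, at 7.30 ± 0.029 and 7.40 ± 0.22.

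**Figure D1:**
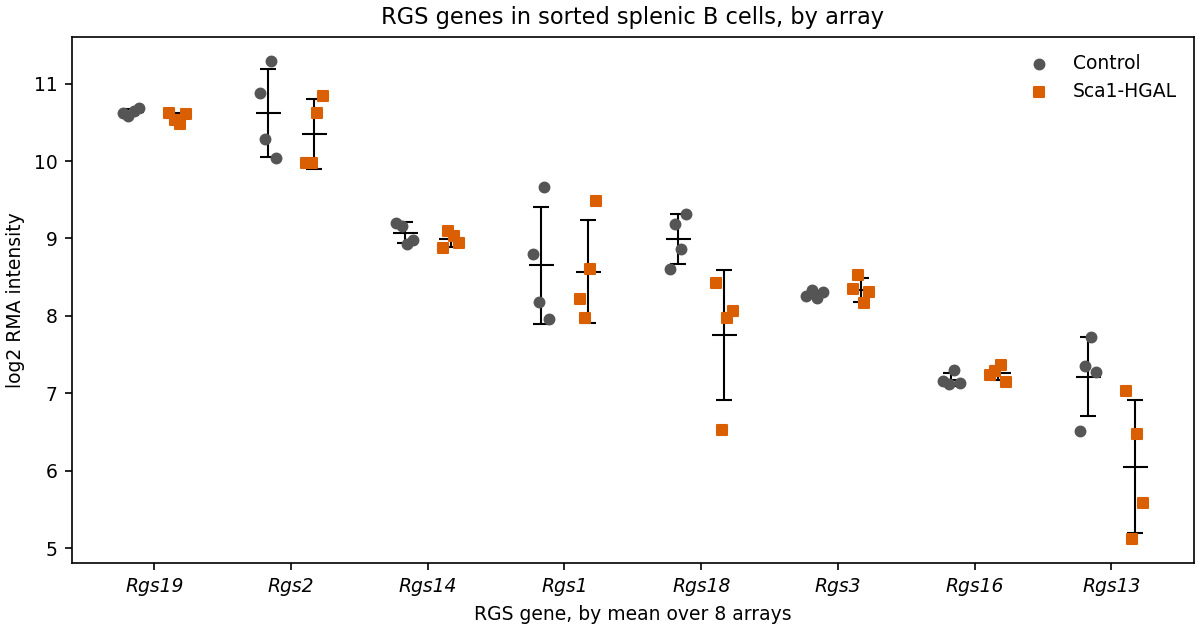
Log2 RMA intensity of the 8 measured RGS genes (y axis) in order of their mean over 8 arrays (x axis), with grey circles for the 4 Control and orange squares for the 4 Sca1-HGAL arrays, and black bars for mean ± SD. The Sca1-HGAL arrays of Rgs18 lie wholly below the Control arrays, and Rgs1, Rgs2, Rgs13 and Rgs18 spread far more than the other 4 genes.

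The spread between arrays of a group divided the 8 genes into a wide and a narrow set. Rgs1 had a within-group SD of 0.71, Rgs13 of 0.71, Rgs18 of 0.64 and Rgs2 of 0.51, against a median of 0.11 over all genes. Among all probe sets these SDs lay between the 99.0th percentile, for Rgs2, and the 99.6th, for Rgs1. Rgs14 had an SD of 0.12, Rgs3 of 0.11, Rgs16 of 0.086 and Rgs19 of 0.055, which is at the 5.44th percentile.

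**Figure D2:**
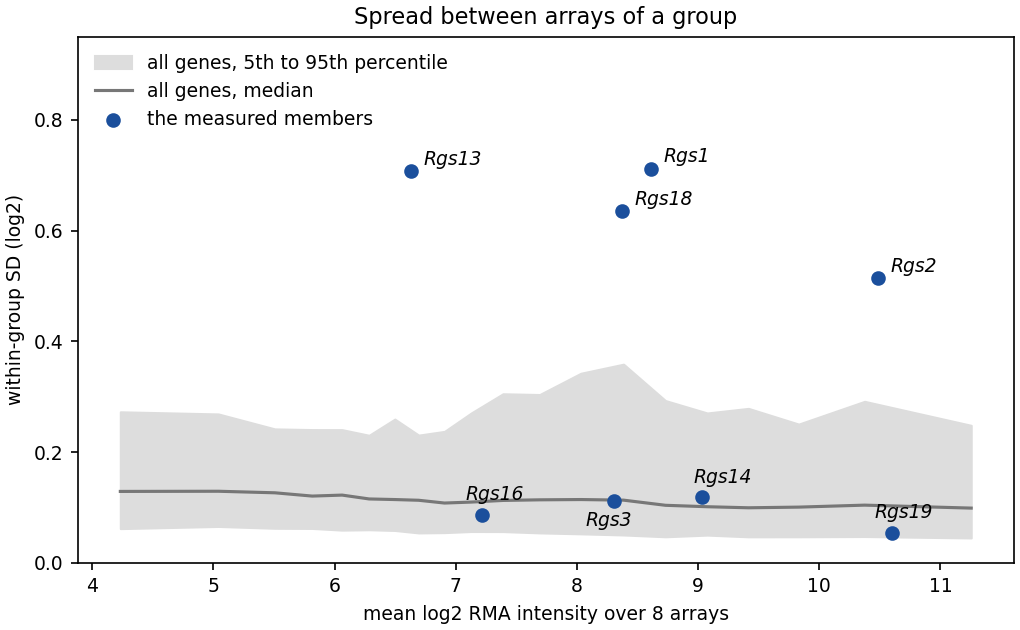
Within-group SD of log2 intensity (y axis, pooled over the 2 groups) against the mean log2 intensity over 8 arrays (x axis). The grey band and line give the 5th to 95th percentile and the median of all genes in 20 bins of level, and blue points are the 8 measured RGS genes. Rgs1, Rgs2, Rgs13 and Rgs18, at 0.51 to 0.71, lie above the band, and the other 4 within it.

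The 4 genes of the wide set lie side by side in the genome. In the RefSeq gene table of GRCm38.p6 the order on chromosome 1 is Rgs2, Rgs13, Rgs1, Rgs21 and Rgs18, with 0 other protein-coding genes between neighbours. Rgs21, no member of the set, was at 4.45 in Control and 4.40 in Sca1-HGAL arrays, with a within-group SD of 0.069. Rgs16 lies on the same chromosome beyond 29 further coding genes and beside Rgs8. Rgs19 is on chromosome 2, Rgs3 on 4, Rgs10 on 7 and Rgs14 on 13. The values carry no genome build of their own, so only the order of genes is given.

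The neighbours Rgs2 and Rgs13, the ones of these 4 genes with a RefSeq promoter entry, are shown because they lie next to each other and varied in different ways. The sequences are the 250 bases before the annotated start, read on the gene's strand (minus for both) from RefSeq on GRCm38.p6, at chr1:144004150-144004399 for Rgs2 and chr1:144177373-144177622 for Rgs13. Capitals mark matches to 5 motifs, searched on both strands and overlapping nowhere in these stretches. The core of a CRE site was searched as TGACG. The Sp1 box was searched with the letters CCGCCC. For the GATA box the letters were TGATAA. The AP-1 motif was written as TGANTCA, where N is any base. The octamer of B-cell promoters was ATTTGCAT.
Rgs2: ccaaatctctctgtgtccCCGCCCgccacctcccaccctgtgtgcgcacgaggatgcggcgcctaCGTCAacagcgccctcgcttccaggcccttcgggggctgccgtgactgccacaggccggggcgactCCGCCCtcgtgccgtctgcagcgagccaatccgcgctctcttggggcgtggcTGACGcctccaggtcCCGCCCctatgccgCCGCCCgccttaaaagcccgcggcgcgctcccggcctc
Rgs13: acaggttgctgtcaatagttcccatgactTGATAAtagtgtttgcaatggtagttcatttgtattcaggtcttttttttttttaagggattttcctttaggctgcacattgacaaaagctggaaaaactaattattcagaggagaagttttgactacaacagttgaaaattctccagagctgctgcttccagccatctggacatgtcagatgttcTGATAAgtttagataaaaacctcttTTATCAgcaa

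The Rgs2 stretch is 72.4% G and C, at the 94.0th percentile of 32851 promoter windows, and the Rgs13 stretch is 36.0%, at the 6.24th percentile. The median window has 52.4%. Rgs2 held 4 Sp1 boxes and 2 CRE cores, motifs found in 32.7% and 17.8% of all windows. Rgs13 held 3 GATA boxes, found in 7.94% of windows. Neither held the AP-1 motif or the octamer, found in 6.75% and 1.60% of windows. Each share counts windows with at least 1 match, whatever their G and C content, so it is no measure for the number of matches. A match is a match of letters only. Of the 9 genes, 6 had an entry in the promoter table, among them Rgs3, Rgs10, Rgs16 and Rgs19, whose windows were 48.4% to 76.4% G and C.

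No RGS gene passed limma at an adjusted p under 0.05 between Sca1-HGAL and Control arrays. Over all probe sets the share that passed was 0.00462%, which is 1 probe set. At an unadjusted p under 0.05, 2 of the 8 genes, Rgs18 and Rgs13, were lower, and none was higher. The same share over all probe sets was 4.06% lower and 5.53% higher. The median log2 difference of the 8 genes was -0.08, against 0.02 over all genes, with 6 genes negative and 2 positive. Without the 2 arrays with high Xist the median of the 8 was -0.37.

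Rgs18 had the largest difference. The Control arrays, replicates 1 to 4, were at 8.60, 9.19, 8.87 and 9.31. The Sca1-HGAL arrays were at 8.43, 6.52, 7.98 and 8.06. All 4 Sca1-HGAL arrays lay below all 4 Control arrays, and Sca1-HGAL replicate 2 stood lowest. The Control arrays with high Xist, replicates 2 and 4, were the highest of their group.

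The log2 difference of Rgs18 was -1.25 (SE 0.35, 95% interval -2.03 to -0.46, limma unadjusted p = 0.0054, adjusted p = 0.297), a level 2.37-fold lower in Sca1-HGAL arrays. It was the single gene of the 8 whose groups did not overlap, a pattern shown by 5.45% of all probe sets. Without Sca1-HGAL replicate 2 the difference was -0.84 (adjusted p = 0.318), and without the arrays with high Xist it was -0.99 (adjusted p = 0.632). Groups that are apart with all arrays stay apart when arrays are left out, so the Rgs18 groups could not overlap in either setting. Over all probe sets, 7.65% had groups apart without Sca1-HGAL replicate 2 and 17.7% without the arrays with high Xist.

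Rgs13 came next by size. Its Control arrays were at 6.51, 7.36, 7.72 and 7.27 and its Sca1-HGAL arrays at 7.03, 5.12, 6.47 and 5.59, in replicate order. The groups overlapped, because Sca1-HGAL replicate 1 lay above Control replicate 1. The log2 difference was -1.16 (SE 0.39, 95% interval -2.03 to -0.29, limma unadjusted p = 0.014, adjusted p = 0.381), 2.24-fold lower. It was -0.85 without Sca1-HGAL replicate 2 and -1.06 without the arrays with high Xist (adjusted p = 0.659). Sca1-HGAL replicates 2 and 4 were the lowest.

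Rgs2 and Rgs1 differed more between arrays of a group than between the groups. Rgs2 was at 10.87, 10.28, 11.30 and 10.04 in Control and 9.97, 9.97, 10.62 and 10.84 in Sca1-HGAL arrays. Its log2 difference was -0.27 (SE 0.29, 95% interval -0.91 to 0.37, adjusted p = 0.815 by limma). Rgs1 was at 8.80, 8.18, 9.66 and 7.97 in Control and 8.22, 7.98, 8.61 and 9.48 in Sca1-HGAL arrays. Its log2 difference was -0.08 (SE 0.39, 95% interval -0.96 to 0.80, adjusted p = 0.973), an interval that holds changes of either sign.

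Both genes were low on the Control arrays with high Xist. There Rgs2 was at 10.04 and 10.28, against 10.87 and 11.30 on the other 2 Control arrays, and Rgs1 at 7.97 and 8.18, against 8.80 and 9.66. Without the arrays with high Xist the log2 difference was -0.73 for Rgs2 (limma unadjusted p = 0.025, adjusted p = 0.599) and -0.66 for Rgs1 (adjusted p = 0.718). In that setting, with 2 Control arrays left, 3 of the 8 genes had groups that did not overlap, Rgs2, Rgs18 and Rgs19, against 17.7% of all probe sets. The difference of Rgs2 ran from -0.47 without Control replicate 4 to -0.05 without Control replicate 3, and was -0.09 with array weights. The part of sex-linked expression in these differences was not tested.

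The narrow set had small differences with narrow intervals. Rgs19 ran from 10.48 to 10.69 over the 8 arrays, Rgs14 from 8.87 to 9.20, Rgs3 from 8.16 to 8.53 and Rgs16 from 7.12 to 7.37, and the groups of each overlapped. Rgs19 had a log2 difference of -0.07 (95% interval -0.20 to 0.06) and Rgs14 of -0.09 (-0.27 to 0.10). Rgs3 had 0.05 (-0.12 to 0.23), with 0.10 at its second probe set, and Rgs16 0.08 (-0.07 to 0.24). Without the arrays with high Xist these differences were -0.07 for Rgs19, -0.08 for Rgs14, 0.09 for Rgs3 and 0.03 for Rgs16. With all arrays their limma adjusted p ran from 0.738 to 0.876. At the probe sets chosen and in the main fit with all arrays, the intervals of these 4 leave out changes larger than 0.27 on the log2 scale in either direction. That limit does not carry over to every setting. With median centring Rgs14 was at -0.12 (SE 0.082), and without the arrays with high Xist the SE of Rgs3 was 0.11. The second probe set of Rgs3 had a wider interval, -0.12 to 0.32.

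**Figure D3:**
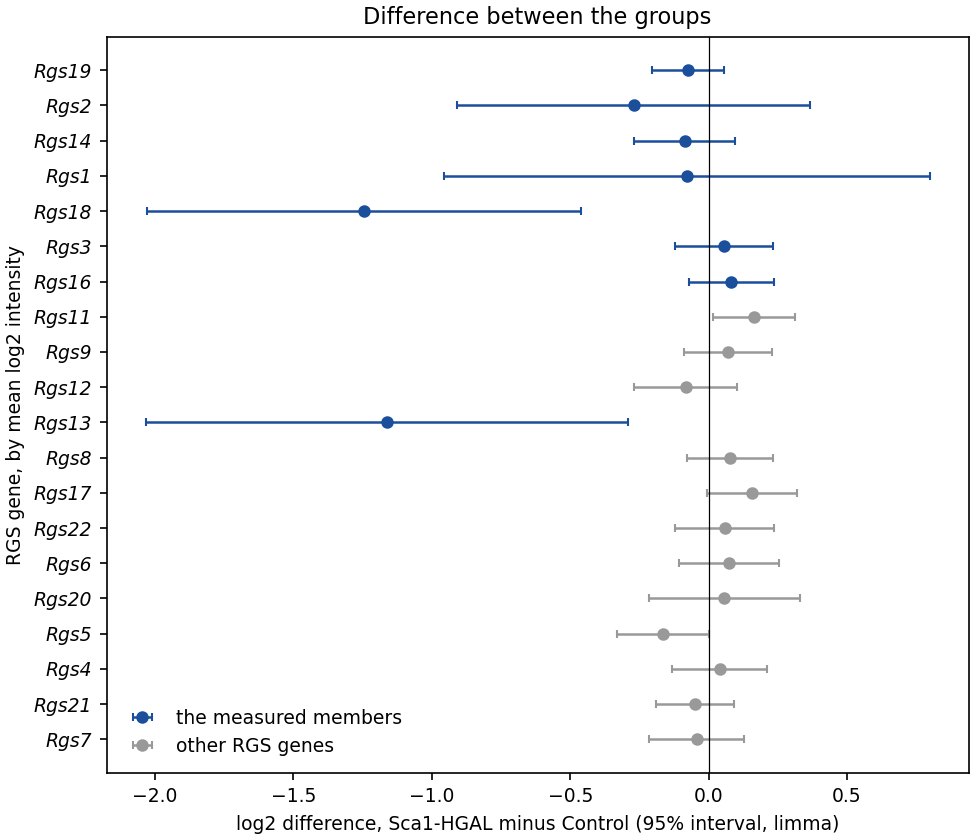
Log2 difference, Sca1-HGAL minus Control (x axis), with its 95% interval from limma, for 20 RGS genes ordered by mean log2 intensity (y axis), the 8 measured genes of the set in blue and the other 12 in grey. Rgs18 at -1.25 and Rgs13 at -1.16 lie far to the left with wide intervals, and the 12 grey genes lie between -0.16 and 0.16.

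The remaining 12 RGS genes were dim and differed little. Their mean levels over 8 arrays ran from 4.27 for Rgs7 to 6.83 for Rgs11, all below the median probe set at 7.26. None passed at an adjusted p under 0.05, and the median log2 difference was 0.06. At an unadjusted p under 0.05, 1 was higher, against 5.53% of all probe sets. Rgs11, of the subfamily that pairs with Gnb5, had 0.16 (SE 0.067), Rgs5, best known from pericytes, -0.16 (SE 0.075), and Rgs17, a relative of Rgs19, 0.16 (SE 0.073).

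Rgs1 and Rgs2 varied together over the arrays. Both were highest on Control replicate 3 and, in their own group, on Sca1-HGAL replicate 4, and both were low on Control replicate 4 and Sca1-HGAL replicate 2. Over 8 arrays Pearson's r was 0.93 (exact permutation p = 0.00064, adjusted over the 28 pairs of measured genes 0.018) and Spearman's rho was 0.81 (exact permutation p = 0.022, adjusted 0.305), both two-sided. The rank correlation therefore did not pass the correction. With each group's mean removed, r was 0.96 (exact permutation within the groups, two-sided, p = 0.0035, adjusted over the 28 pairs 0.097), which did not pass it either. Without the 2 arrays farthest from the median of Rgs2, r was 0.91, and over the 6 arrays with low Xist it was 0.92. The pair was noticed in these arrays, and each point is 1 array, so shared handling of a sample enters both values.

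Rgs13 and Rgs18 were both lowest on Sca1-HGAL replicate 2, at 5.12 and 6.52, and within that group both were highest on replicate 1, at 7.03 and 8.43. In the Control group both were lowest on replicate 1, at 6.51 and 8.60, while Rgs13 was highest on replicate 3 and Rgs18 on replicate 4. The groups were separate in Rgs18, so the relation was tested with each group's mean removed, where r was 0.75 (exact permutation within the groups, two-sided, p = 0.071, adjusted over the 28 pairs 0.454) and did not pass. Both tests within the groups were added after the values were seen, and the smallest p they allow is 0.0017.

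**Figure D4:**
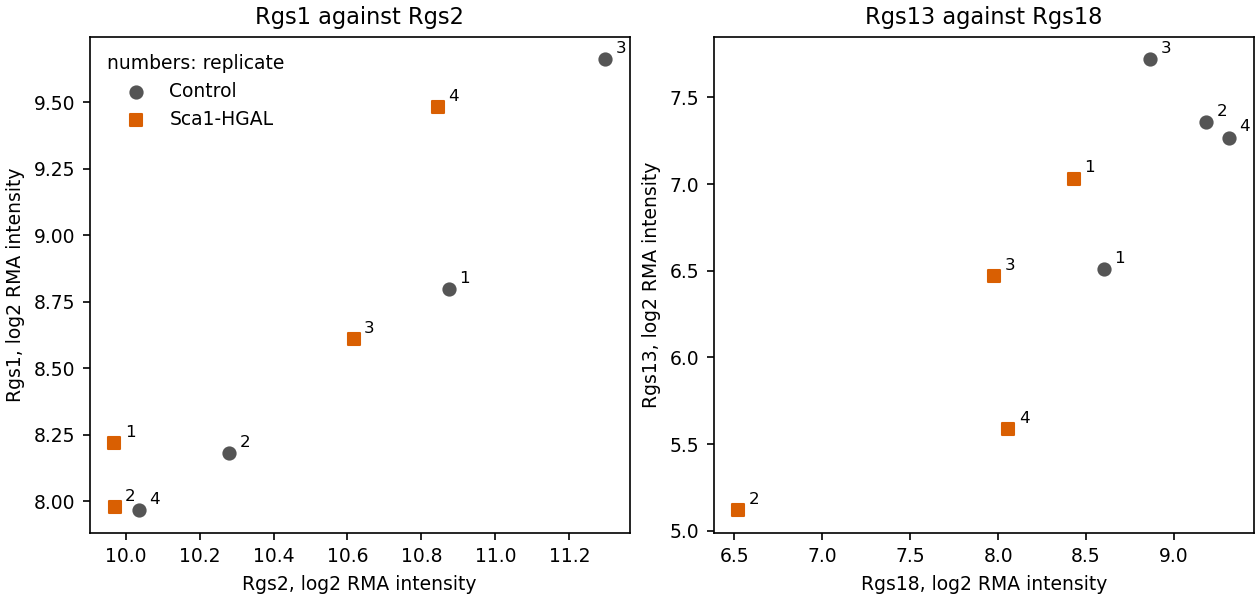
Log2 RMA intensity of Rgs1 against Rgs2 (left) and of Rgs13 against Rgs18 (right), with 1 point per array (grey circles Control, orange squares Sca1-HGAL) and its replicate number beside it. On the left both groups run along 1 diagonal and overlap, with r at 0.93, and on the right the Sca1-HGAL arrays lie to the left of the Control arrays.

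For each gene whose level spanned at least 1 on the log2 scale, the 3 genes with the nearest profile were found by the root mean square difference of centred log2 levels over 8 arrays. Rgs1 was nearest to Rgs2 (0.25), followed by the histone gene H2bc4 (0.40) and Eya1 (0.41). Rgs2 was nearest to the immunoglobulin constant gene Ighg3 (0.22), the ERK phosphatase gene Dusp5 (0.25) and Rgs1 (0.25). Rgs18 was nearest to the ubiquitin ligase gene Nedd4 (0.31), the fatty acid receptor gene Cd36 (0.36) and the predicted gene Gm7265 (0.36). Rgs13 was nearest to Cd36 (0.32), the transcription factor gene Myb (0.36) and Nedd4 (0.37). Nedd4 and Cd36 were thus near to both Rgs13 and Rgs18. Their log2 differences were -1.10 (SE 0.22, limma adjusted p = 0.144) and -1.24 (SE 0.30, adjusted p = 0.230). The group difference was part of the profiles compared, so their negative sign followed from the choice and is no separate result.

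The G-protein alpha subunits, the class of proteins on which RGS proteins act, showed little difference. The list was not limited to subunits that are targets of the RGS genes measured. Of 12 measured of 13 listed, 0 passed at an adjusted p under 0.05, and the median log2 difference was -0.03. At an unadjusted p under 0.05, 1 was lower, against 4.06% of all probe sets. That gene was Gna12, at 9.65 ± 0.13 in Control and 9.41 ± 0.056 in Sca1-HGAL arrays, a difference of -0.24 (SE 0.075, limma adjusted p = 0.346). Gnal had -0.26 and Gnao1 0.10. Gnai2, the main Gi subunit of lymphocytes and named here after its value was seen, was at 11.92 in both groups.

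Among beta and gamma subunits, 4 of 14 were higher at an unadjusted p under 0.05 and none lower, against 5.53% higher and 4.06% lower over all probe sets, with a median of 0.09 and 0 past the adjusted threshold. Gng12 was at 8.97 ± 0.059 in Control and 9.66 ± 0.38 in Sca1-HGAL arrays, a log2 difference of 0.69 (SE 0.16, limma adjusted p = 0.193). Gng3 had 0.70 (SE 0.19) from a dim 5.51, and Gng2 0.15 (SE 0.061).

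Receptors that guide B cells had differences in both directions. Of 17 measured of 18 listed, 0 passed the adjusted threshold, and the median was -0.11. At an unadjusted p under 0.05, 5 were lower and 3 higher, against 4.06% lower and 5.53% higher over all probe sets. The lysophosphatidic acid receptor gene Lpar2 had a log2 difference of -0.77 (SE 0.12, limma adjusted p = 0.111), the sphingosine-1-phosphate receptor gene S1pr3 -0.83 (SE 0.17, adjusted p = 0.156) and the cannabinoid receptor gene Cnr2 -0.29 (SE 0.068, adjusted p = 0.215). The chemokine receptor gene Cxcr3, named after its value was seen, had the largest difference of the list, 0.96 (SE 0.24, adjusted p = 0.247). Of the 17 receptors, 5 had groups that did not overlap, against 5.45% of all probe sets: these 4 genes and S1pr4, also named afterwards, at -0.21.

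Receptor kinases and arrestins, which switch off the receptor itself, had a median of 0.08 over 6 measured of 7 listed, with 0 past the adjusted threshold and 2 higher at an unadjusted p under 0.05. The arrestin gene Arrb1 had 0.23 (SE 0.071), the receptor kinase gene Grk5 0.51 (SE 0.16) and Grk3 -0.27 (SE 0.14). Effectors had a median of 0.02 over 19 genes, with 0 past the adjusted threshold, 1 lower and 2 higher at an unadjusted p under 0.05. Over all probe sets, 4.06% were lower and 5.53% higher at that unadjusted threshold. Pik3r6, a regulator of the PI3 kinase that answers to G proteins, had 0.58 (SE 0.15), Arhgef12 0.35 (SE 0.10) and the phospholipase gene Plcb2 -0.20 (SE 0.059). Among 9 measured of 10 partners of Rgs14 and other GoLoco proteins, 0 passed at either threshold, with a median of -0.04 and Rap1gap at -0.20, Ric8a at 0.12 and Ric8b at -0.10.

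Marker genes of other cells were measured beside the 2 genes with the largest differences, as counts and as intensities summed over a list. Megakaryocytes and platelets express Rgs18, and all 8 measured markers of 11 had a positive log2 difference, none at an unadjusted p under 0.05. Their sum was 1248 to 1880 in Control and 1684 to 3124 in Sca1-HGAL arrays, with Gp9 at 0.31, Pf4 at 0.38 and Ppbp at 0.88. The sum of 3124 was on Sca1-HGAL replicate 4, against 1799, 1921 and 1684 on replicates 1 to 3. The sums overlapped between the groups, and the part of these cells in the Rgs18 values was not tested. Of germinal centre markers, 6 of 11 measured of 12 listed were negative. At an unadjusted p under 0.05, 1 of them (Neil1, -0.26) was lower, against 4.06% of all probe sets. The sum was 8494 to 10013 in Control and 8228 to 12401 in Sca1-HGAL arrays. Gpr183, which germinal centre B cells turn down, made up 39.3% to 55.8% of that sum, and without it the sum was 5056 to 5367 in Control and 4724 to 5485 in Sca1-HGAL arrays. Gcsam had -0.29 and Efnb1 0.14. For mast cells and basophils, which also express Rgs13, the sum was 563.3 to 584.7 and 587.3 to 619.8, with 4 of 8 genes negative and 4 positive, a median of 0.04, and Prss34 at 0.15, Hdc at 0.12 and Gata2 at 0.12.

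Of 7 measured plasmacytoid dendritic cell markers of 8, 6 were negative and 2 had an unadjusted p under 0.05, with Ccr9 at -0.83, Siglech at -0.68 and Pacsin1 at -0.18, and the sum was 8498 to 9384 in Control and 8532 to 9478 in Sca1-HGAL arrays. Spib and Tcf4, which B cells also express, made up 82.7% to 88.7% of that sum. Without these 2, the brightest genes of the list, it was 1156 to 1621 in Control and 1034 to 1150 in Sca1-HGAL arrays. These sums were apart only by the narrow gap from 1150 to 1156. Of the 7 genes, 2 (Ccr9 and Siglech) had groups that did not overlap, against 5.45% of all probe sets. NK cell markers were negative in 7 of 9, with sums of 963.6 to 1359 and 682.7 to 1385, and Gzma at -0.77, Klrk1 at -0.28 and Ncr1 at -0.46. Neutrophil markers were positive in 11 of 11, with Mmp9 at 0.34, Elane at 0.40 and Mpo at 0.36. Their sums were 878.1 to 1502 in Control arrays and 2958, 1872, 994.2 and 1305 on Sca1-HGAL replicates 1 to 4. Replicates 3 and 4 thus lay within the Control range. At an unadjusted p under 0.05, 5 genes were higher on the neutrophil list, and 2 were lower on each of the NK and plasmacytoid lists. The same share over all probe sets was 5.53% higher and 4.06% lower. No listed marker was at 0, since every probe set of an array has a positive intensity, and the part of other cells in the RGS values was not tested.

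T cell markers had sums of 1828 to 2437 in Control and 1433 to 3403 in Sca1-HGAL arrays, with 4 of 10 measured of 12 negative, Cd4 at -0.26, Lat at -0.15 and Bcl11b at -0.10. Macrophage and monocyte markers had sums of 2003 to 2837 and 1979 to 2979, with 5 of 9 measured of 10 negative, Adgre1 at 1.01, Cd14 at 0.19 and Ccr2 at -0.12. Plasma cell markers had sums of 7183 to 8258 and 5620 to 8975, with 5 of 8 negative, Slamf7 at -0.64, Sdc1 at -0.43 and Xbp1 at -0.09. B-cell markers had 7 of 9 measured of 10 negative with a median of -0.04, Cd79a at -0.11, Ms4a1 at -0.11 and Ebf1 at -0.12, and their sum ran from 68493 to 69192 in Control and from 65344 to 68173 in Sca1-HGAL arrays. None of the marker genes named passed at an adjusted p under 0.05.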

How the data were processed

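The arrays, 1 for each of 8 RNA samples, were Affymetrix Mouse Gene 1.0 ST. Sample titles gave the groups and the replicate numbers. The authors deposited RMA intensities on a linear scale, per the submitters' processing notes, and the RMA version and annotation were not given in the sources. RMA forces arrays onto 1 distribution, which removes changes common to most genes, and it compresses differences of dim probe sets. Intensities were converted to log2, without a pseudocount or a filter.

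Of 34760 probe sets, the platform table gave 21640 with 1 symbol, 1321 with several and none for 11799. A 2-group model was fitted to the 21640 by lmFit and eBayes (limma 3.58.1, R 4.3.3), with two-sided p-values adjusted by Benjamini-Hochberg over all of them and a threshold of 0.05. The fit was tested on simulated data. The genes of interest, the lists and the arrays set aside for high Xist (above log2 9) were chosen with earlier results of these data known. The text names all RGS genes of the set, the 3 genes with the smallest p of each list, the sorting genes, Xist and Eif2s3y, and the genes of nearest profile with a mean log2 level of at least 6. Another 3 lists of B-cell subsets and 10 early response genes were added after the values were seen. Correlations used all 40320 orders of 8 arrays, or the 576 orders within the groups. There were 16 alternative settings. Promoters are from RefSeq (GRCm38.p6).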

Additional observations from a re-analysis of the deposited data

How the results depend on the processing

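No RGS gene passed an adjusted p under 0.05 in any of the 16 alternative settings (second quantile normalisation, median centring, a filter at a mean log2 level of 6, array weights, replicate block, a trended robust prior, averaging the probe sets of a gene, each array left out, no arrays with high Xist). The log2 difference of Rgs18 ran from -1.47 to -0.84 over these (unadjusted p under 0.05 in 15) and that of Rgs13 from -1.49 to -0.85 (also 15), the exception in both being without the arrays with high Xist. The difference of Rgs1 turned positive with array weights, at 0.21, and ran from -0.38 to 0.26 with 1 array left out. That of Rgs3 ran from -0.010 to 0.11 with 1 array left out. The other 6 genes kept their sign. The median of the 8 genes was -0.37 without the arrays with high Xist and ran from -0.24 (without Sca1-HGAL replicate 4) to -0.059 with 1 array left out, and was -0.21 without Control replicate 4. The count of genes whose groups did not overlap was 3 without the arrays with high Xist (17.7% of all probe sets). It was 1 to 2 with 1 array left out (7.65% to 11.8%). There Rgs13 joined Rgs18 without Control or Sca1-HGAL replicate 1, and Rgs19 joined it without Control replicate 2. Groups already apart stay apart when arrays are left out, so these counts could not fall. Over all probe sets, 1 passed, against 3 with median centring, 12 with array weights, 6 with the replicate block, 2 with probe sets averaged, 2 without the arrays with high Xist and 1 to 40 with 1 array left out (40 without Sca1-HGAL replicate 3). Arrays with the same replicate number did not deviate together (correlations from -0.16 to 0.053), and not every array correlated best with its own number. These correlations, over few arrays and with each group's mean removed, gave no sign of pairing but cannot exclude it. The 4 arrays in each group limit what a test over all probe sets can call.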

Other observations

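Genes of the early response to stimulation and handling, a list of 10 added after the values of Rgs1 and Rgs2 were seen, had negative log2 differences in 10 of 10, of which none passed at an adjusted p under 0.05. Nr4a1 had a log2 difference of -0.69 (SE 0.39), Dusp1 -0.61 (SE 0.26), Egr1 -0.45 (SE 0.27) and Fos -0.32 (SE 0.28), with limma adjusted p of 0.614, 0.503, 0.649 and 0.771. The median of the centred levels of the 10 genes was highest on Control replicate 1, at 0.56, and lowest on Sca1-HGAL replicate 2, at -0.56. On Control replicate 3 and Sca1-HGAL replicate 4, where Rgs1 was at 9.66 and 9.48, it was 0.04 and -0.07. The part of stimulation or handling in the Rgs1 and Rgs2 values was not tested.

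Genes of B-cell subsets, on lists also added after the values were seen, were set beside Rgs18 and Rgs13. All 11 marginal zone genes had a negative log2 difference, 8 of them at an unadjusted p under 0.05 (4.06% of all probe sets), with a median of -0.51, and Asb2 was at -0.78, Pik3r4 at -0.54 and Ackr3 at -0.58. Their summed intensity was 18594 to 22948 in Control and 15013 to 16002 in Sca1-HGAL arrays. Of 7 transitional and immature B-cell genes measured, 5 were negative, with Akap12 at -0.55, Cd93 at -1.01 and Vpreb3 at -0.40. The dim genes Rag1, Rag2 and Dntt had 0.04, 0.09 and -0.02. The sums were 2102 to 3363 and 1713 to 1846. Vpreb3, by far the brightest of the list at a mean level of 10.44, weighed most in these sums. Of 6 follicular genes measured, 4 were negative, with Fcer2a at -0.42, Ccr7 at -0.41 and Cxcr5 at -0.11, and the sums, 18288 to 20248 and 14455 to 19161, overlapped. None passed at an adjusted p under 0.05 over all probe sets, and the part of subset makeup in the RGS values was not tested.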
